A study of Mus musculus with 12 samples.

Results

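The genes described here carry out V(D)J recombination and the end joining that completes it. The genes taken are Rag1, Rag2, Dntt, Polm, Poll, Lig4, Xrcc4, Dclre1c, Prkdc and Xrcc6, measured by every probe set that the platform annotation assigns to one of these symbols: 13 of the 45037 probe sets, for 9 of the 10 genes and of 18193 genes in all. Dclre1c, which encodes the hairpin-opening nuclease Artemis, had no probe set annotated to it, so its expression was not analysed here. Every one of the 12 arrays holds RNA from pre-pro-B cells, early lymphoid progenitors, of Ebf1-/- mice (C57BL/6), which lack the transcription factor EBF1. They grew on OP9 stromal cells with interleukin-7 (5 ng/ml), Flt3 ligand and stem cell factor (both 10 ng/ml). The cells received a retrovirus with GFP alone (MigR1, the control), with EBF1 (Mig-EBF1) or with PAX5 (Mig-PAX5), and GFP-positive cells were sorted after 2 days. The labels give 4 groups of 3 arrays: controls and EBF1 in set 1, controls and PAX5 in set 2. The Ebf1-/- genotype is shared by the controls, EBF1 and PAX5 groups. The labels give neither the age nor the number of mice, nor whether a replicate is a culture of its own, so the p-values here reflect the variation among these arrays alone, which may be technical.

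In V(D)J recombination the RAG1 and RAG2 proteins together cut antigen receptor genes beside their V, D and J segments, leaving hairpin ends. The Ku heterodimer, of which Xrcc6 encodes Ku70, binds the ends and recruits the kinase encoded by Prkdc and the nuclease Artemis. The polymerases encoded by Dntt (terminal transferase), Polm and Poll add or fill in bases, and the ligase encoded by Lig4 seals the join with its partner XRCC4. Rag1, Rag2 and Dntt are known as lymphoid genes switched on in early progenitors, while the end joining factors are made in most cells.

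The 250 bases before the RefSeq start are shown for Rag1 and Rag2, whose levels are compared most closely below, and for Polm, the member that passed the test. Capitals mark the core of the palindromic EBF1 motif, CCCNNGGG, and the E-box CANNTG, bound by E proteins; both motifs read the same on either strand.
Rag1 (GRCm38.p6 chr2:101649533-101649782, minus strand): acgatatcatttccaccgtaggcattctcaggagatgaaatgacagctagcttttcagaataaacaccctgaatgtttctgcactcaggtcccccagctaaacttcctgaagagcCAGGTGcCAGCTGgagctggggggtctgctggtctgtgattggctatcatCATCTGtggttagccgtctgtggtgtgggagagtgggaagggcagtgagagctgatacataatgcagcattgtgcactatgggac
Rag2 (GRCm38.p6 chr2:101624462-101624711, plus strand): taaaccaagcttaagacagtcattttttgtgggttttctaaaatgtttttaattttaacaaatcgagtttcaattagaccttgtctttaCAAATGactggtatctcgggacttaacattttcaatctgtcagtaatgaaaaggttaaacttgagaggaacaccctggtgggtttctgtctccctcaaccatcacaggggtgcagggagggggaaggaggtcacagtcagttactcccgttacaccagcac
Polm (GRCm38.p6 chr11:5838017-5838266, minus strand): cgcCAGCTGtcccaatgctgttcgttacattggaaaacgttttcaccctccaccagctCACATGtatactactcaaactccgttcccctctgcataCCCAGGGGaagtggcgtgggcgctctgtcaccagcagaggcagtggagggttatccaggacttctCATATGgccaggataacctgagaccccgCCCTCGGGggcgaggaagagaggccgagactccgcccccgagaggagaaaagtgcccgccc
CCCNNGGG occurred 2 times before Polm, starting 154 and 61 bases before the start, and in neither Rag window. It is present in 11.8% of all 32851 RefSeq windows of this length. Rag1 had 3 E-boxes, Rag2 had 1 and Polm had 3, and 66.2% of all windows hold at least 1. The Runx motif TGTGGT, searched on both strands, occurred 2 times before Rag1, at 81 and 67 bases, the first overlapping an E-box, where 4614 of the 32851 windows hold at least 1. The Foxo motif TGTTTAC, searched on both strands, was in none of the 3 windows and in 3.17% of all. Of the 10 genes, 8 had a window, 9 windows in all, and CCCNNGGG was found in that of Polm alone. These matches describe letters only.

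Values are intensities, and changes are differences of log2(intensity + 16), tested with limma over all 45037 probe sets at a Benjamini-Hochberg adjusted p under 0.05. Array medians lay between 55.1 and 60.6 in set 1 and between 65.3 and 68.9 in set 2, and precision is limited by how few arrays there are. Across the sets, controls with the same number differed by less than controls with different numbers (robust SD of log2 differences of 0.039 to 0.094, where the latter had 0.287 to 0.374 across sets and 0.281 to 0.359 within a set), so the 6 control arrays were counted as 3 samples. PAX5 arrays 2 and 3 (0.077) were counted as 1, leaving 2 PAX5 samples, and both comparisons share the same control samples. The labelled cell type was checked against markers: 8 early lymphoid progenitor genes summed to 13498 to 19997 in the controls of set 1, 7 committed B cell genes to 276 to 351, 8 T cell genes to 464 to 623, 4 natural killer genes to 70.2 to 158, 4 erythroid genes to 159 to 203 and 6 myeloid genes to 878 to 2166. The 12 OP9 stroma genes summed to 605 to 2247 in these controls and to 2701, 853 and 11787 in EBF1 arrays 1, 2 and 3, so EBF1 array 3 stands apart. The committed B cell genes summed to 26612, 17963 and 10832 in EBF1 arrays 1, 2 and 3, where 5 of 7 rose. In PAX5 arrays they summed to 5504, 4309 and 4003 against 611 to 690 in their controls, where 1 of 7 rose, Blnk. The transduced Pax5 rose in PAX5 cells by 5.67 in log2 (SE 0.27, adjusted p = 4.9e-05) on its brightest probe set. A second Pax5 probe set did not pass, at 54.1, 56.1 and 60.2 with PAX5 against 74.2, 54.6 and 63.1 (-0.14, adjusted p = 0.91). Ebf1 probe sets do not check the EBF1 label, since their place relative to the deleted part was not analysed here; none of them passed with EBF1.

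Polm rose with PAX5, no other member passed the threshold with PAX5, and none did with EBF1. Over all probe sets 0.515% passed with PAX5, 0.464% upward and 0.0511% downward, and 1 of the 13 member probe sets passed, upward. With EBF1, 0 of 13 passed by limma where 0.0977% of all did (0.0933% upward and 0.00444% downward), and 3 of 13 had an unadjusted p under 0.05 (Rag1, Lig4 and 1 of the Dntt probe sets), 2 upward and 1 downward, where 9.97% of all did, 5.53% upward and 4.44% downward. With PAX5 the count at unadjusted p under 0.05 was 1 of 13 (Polm), where 8.51% of all did, 4.67% upward and 3.84% downward. The difference between the EBF1 change and the PAX5 change passed for Rag1, higher with EBF1, and for Polm, higher with PAX5, which is 2 of 13 where 1.05% of all passed, 0.28% higher with EBF1 and 0.77% higher with PAX5. At unadjusted p under 0.05 the difference counted 5 of 13, with Lig4 and both Xrcc6 probe sets added, where 14.7% of all did, 7.79% and 6.88% by direction. The median change over the members was 0.017 with EBF1 and 0.022 with PAX5, beside 0.015 and -0.011 over all probe sets, and the median difference was -0.23 beside 0.027. With EBF1, 2 member probe sets were above every control array and 1 was below, where 7.06% and 6.14% of all were. With PAX5, 3 were above and 0 below, where 8.14% and 8.77% were.

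**Figure D1:**
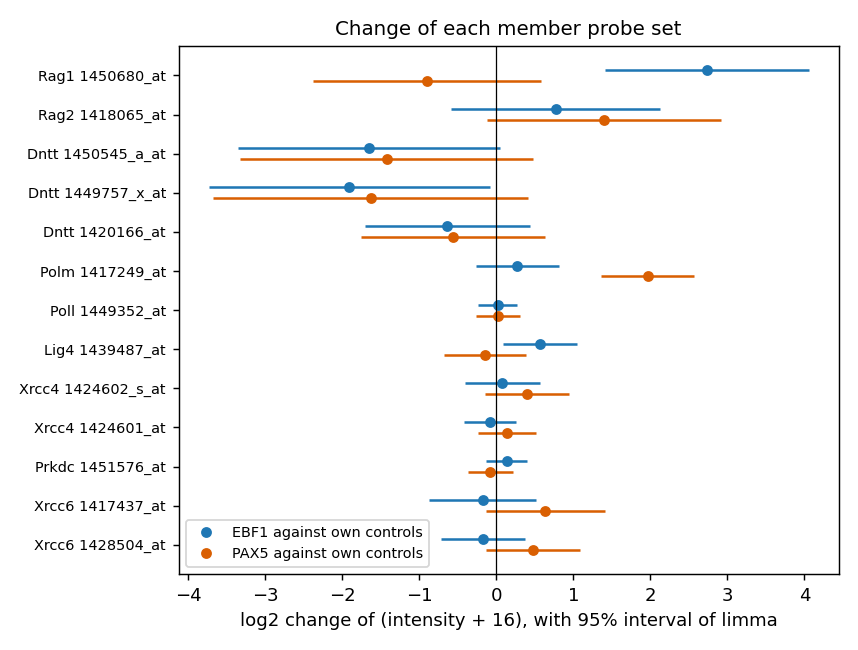
Log2 change of each of the 13 member probe sets with EBF1 (blue) and PAX5 (orange) against the controls of the same set, as points with 95% intervals from limma. The interval of Polm with PAX5 and that of Rag1 with EBF1 lie farthest above 0, those of Poll and Prkdc lie close around 0, and those of Dntt are wide.

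Rag1, the catalytic subunit of the recombinase, read 552, 118 and 623 in control arrays 1, 2 and 3 of set 1, while the EBF1 arrays in that order read 3435, 2954 and 1368. Every EBF1 array was above every control, and control 2 stood well below the other controls. The means were 431 ± 274 and 2586 ± 1082 (SD, n = 3 each), a ratio of 6.00. The log2 change of 2.73 (SE 0.58) had an unadjusted p of 0.0012 and did not pass over all probe sets (limma adjusted p = 0.16, from 0.058 to 0.48 over the alternatives). Against the control of equal number, EBF1 arrays 1, 2 and 3 were higher by 2.60, 4.47 and 1.11 in log2. With that pairing as a block the adjusted p was 0.34. EBF1 array 3, the one with high stroma transcripts, held the lowest Rag1 of the EBF1 arrays, and the part of stroma RNA in that was not tested. The order of the EBF1 arrays by summed committed B cell genes was the same as by Rag1, and their part was not tested either. Without EBF1 array 3 the Rag1 change was 3.13 (limma adjusted p = 0.058). In bulk RNA, fewer cells with a transcript and less of it in each cell cannot be told apart.

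With PAX5, Rag1 read 187, 221 and 213 in arrays 1, 2 and 3, against 620, 129 and 714 in control arrays 1, 2 and 3 of set 2. The PAX5 values lie between the low control and the other controls, so the groups overlap. The log2 change was -0.90 (SE 0.65, adjusted p = 0.80). The EBF1 change exceeded the PAX5 change by 3.63 (SE 0.65, limma adjusted p = 0.042), with all 3 EBF1 arrays above, and all 3 PAX5 arrays below, their control mean. It no longer passed in 8 of 17 alternatives, which include leaving out control 1 (adjusted p = 0.062) or control 3 (0.060), EBF1 array 1 (0.13) or 2 (0.12), or PAX5 array 1 (0.42).

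Rag2, the regulatory subunit, read 820, 137 and 799 in control arrays 1, 2 and 3 of set 1, and 1218, 628 and 633 in the EBF1 arrays. Control 2 was again the low one, and EBF1 arrays 2 and 3 lay below controls 1 and 3. The log2 change was 0.77 (SE 0.60, adjusted p = 0.74), and without control 2 it was -0.042. In PAX5 arrays 1, 2 and 3 Rag2 read 1384, 1246 and 1159, against 862, 146 and 832 in the controls of set 2. All PAX5 arrays were above all controls and close to one another. The means were 613 ± 405 (n = 3) and 1293 ± 128 (n = 2), and the log2 change of 1.4 (SE 0.67) did not pass (adjusted p = 0.62). For both Rag genes control 2 lay far below controls 1 and 3. The SD of log2 values over the 3 control samples was above that of 99.93% of probe sets for Rag1 and 99.96% for Rag2. The summed progenitor markers were also lowest in control 2, at 13498 against 19997 and 19213, and their part in the low Rag values was not tested. The difference between the EBF1 and PAX5 changes of Rag2 was -0.63 (SE 0.67, adjusted p = 0.73, interval -2.15 to 0.89).

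**Figure D2:**
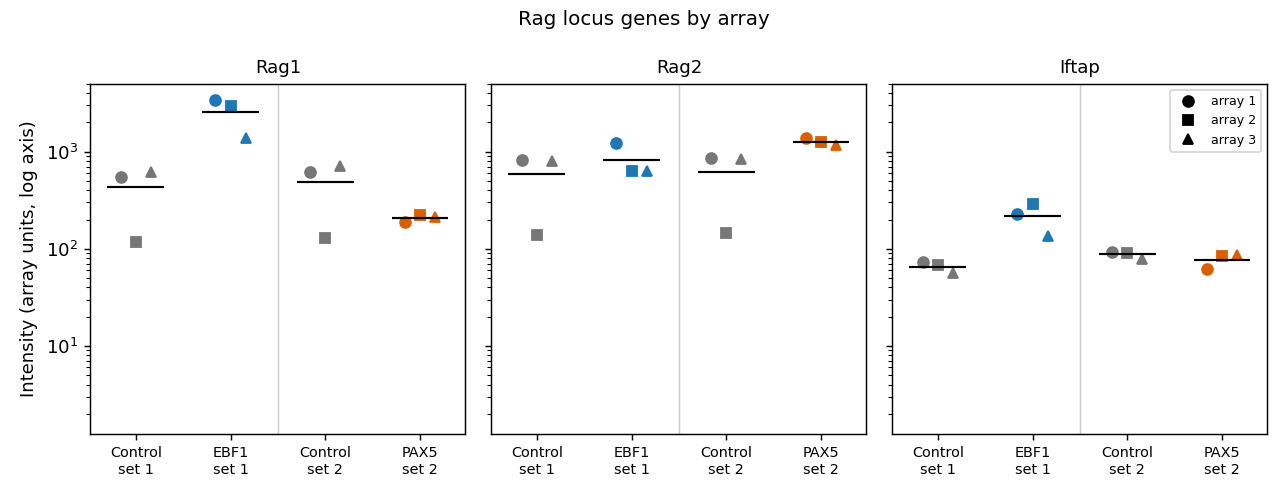
Intensity (log axis) of Rag1, Rag2 and Iftap in each of the 12 arrays, by group. Symbols give the array number and black lines the mean of 3 arrays. Rag1 and Iftap are above all controls in the EBF1 arrays, and Rag2 is above all controls in the PAX5 arrays.

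Rag1 and Rag2 moved by nearly the same amount among the controls and apart in the cells with EBF1 or PAX5. Relative to the control mean of its set, Rag1 minus Rag2 was -0.19, 0.17 and 0.02 in log2 in control arrays 1, 2 and 3 of set 1, although each gene spanned over 5-fold there. In the 3 arrays with EBF1, taken in order, the same difference stood at 1.85, 2.57 and 1.46. The 3 arrays with PAX5 stood at -2.51, -2.13 and -2.08. So the 2 genes shifted unequally, toward Rag1 with EBF1 and toward Rag2 with PAX5, in every array. This contrast of the genes was picked after their values were seen and is given without a test.

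**Figure D3:**
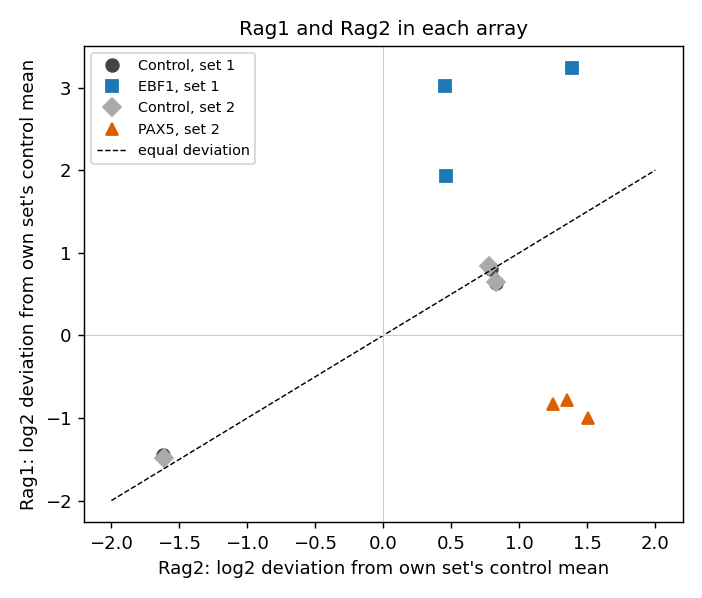
Log2 deviation of Rag1 (vertical) and Rag2 (horizontal) from the control mean of the same set, 1 point per array, with a dashed line where both are equal. Control points lie near the line, EBF1 points 1.46 to 2.57 above it and PAX5 points below it, at a difference of -2.51 to -2.08.

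Iftap, which encodes an intraflagellar transport-associated protein, is the next gene to Rag2 in the GRCm38.p6 table, and its annotated span overlaps that of Rag2. Its brightest probe set read 72.3, 68.4 and 56.3 in controls 1, 2 and 3 of set 1 and 228, 288 and 134 in EBF1 arrays 1, 2 and 3, all above the controls. The log2 change with EBF1 was 1.46 (SE 0.24, adjusted p = 0.11). In PAX5 arrays it read 61.7, 84.4 and 85.4 against 92.9, 91.4 and 78.3, a change of -0.22 (SE 0.27, adjusted p = 0.91). The EBF1 change exceeded the PAX5 change by 1.68 (SE 0.27, limma adjusted p = 0.03), but not in 10 of 16 alternatives, such as those that left out control 1 (0.054), 2 (0.055) or 3 (0.062). Nor did it pass without EBF1 array 1 (adjusted p = 0.098), EBF1 array 2 (0.07) or PAX5 array 1 (0.37). The other 3 Iftap probe sets were dim, and 1 of them read 39.2, 15.8 and 17.7 with PAX5 against 11.1, 13.4 and 10.4. With EBF1 that probe set read 22.67, 24.15 and 17.87 against 9.57, 9.49 and 7.75. Its changes were 0.59 with EBF1 (limma adjusted p = 0.34) and 0.62 with PAX5 (0.41). Their difference was -0.04 (0.96), unlike that of the brightest probe set. Traf6, on the other side of Rag1, did not pass in either comparison (0.22 with EBF1, adjusted p = 0.64, and 0.10 with PAX5, 0.93). Where the probes lie within the overlap of Iftap and Rag2 was not analysed here, so which of them a probe reads cannot be stated.

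Dntt encodes terminal transferase, which adds bases without a template at the joins. Its brightest probe set read 754, 58.8 and 120 in controls 1, 2 and 3 of set 1 and 75.1, 28.3 and 46.5 in EBF1 arrays 1, 2 and 3. In set 2 it read 809, 66.8 and 141 in the controls and 105, 38.0 and 41.9 in PAX5 arrays. Control 1 was far above every other array, and the groups overlap with or without it. The log2 change was -1.65 (SE 0.75, adjusted p = 0.52) with EBF1 and -1.42 (SE 0.84, adjusted p = 0.73) with PAX5. Against the control of equal number the EBF1 arrays were lower by 3.08, 0.76 and 1.12 on the log2 scale, so lower in 3 of 3, and with number as a block the adjusted p was 0.37. Without control 1 the changes were -0.67 and -0.47. The next probe set had the same order of controls, with control 1 at 887 and controls 2 and 3 at 81.3 and 92.2. Its EBF1 values of 76.9, 17.2 and 42.1 were all below the controls. Its change was -1.91 (SE 0.80, adjusted p = 0.48) with EBF1 and -1.63 (SE 0.90, 0.70) with PAX5. The dimmest read 87.3 in control 1 and 10.5 to 16.2 in controls 2 and 3, and changed by -0.64 and -0.56 without passing. The 6 myeloid marker genes also summed highest in control 1, at 2166 against 1326 and 878 in controls 2 and 3, and lower in EBF1 arrays 1, 2 and 3, at 550.5, 378 and 738. Most of that sum was Mpo, which alone read 1876, 1034 and 660 in controls 1, 2 and 3 and 407, 199 and 537 with EBF1. Itgam, another of the 6, was highest in control 2. The median log2 deviation of the listed myeloid genes was 0.10, -0.03 and -0.03 in these controls. In EBF1 arrays 1, 2 and 3 it was -0.15, -0.14 and -0.02. The part of myeloid transcripts in the Dntt values was not tested.

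Polm encodes polymerase mu, the closest relative of terminal transferase, which fills in ends during joining. It read 15.4, 7.46 and 16.8 in controls 1, 2 and 3 of set 2 and 123, 82.8 and 69.1 in PAX5 arrays 1, 2 and 3, all above the controls. The summed committed B cell genes had the same order of PAX5 arrays, but most of that sum was Blnk. Blnk alone read 4877, 3639 and 3351 in PAX5 arrays 1, 2 and 3. The median log2 deviation of the listed genes was 0.28, 0.18 and 0.31 in these arrays, which is another order. The part of these genes in the Polm values was not tested. The means were 13.2 ± 5.05 (n = 3) and 99.3 ± 33.1 (n = 2). The log2 change of 1.96 (SE 0.26) passed (limma adjusted p = 0.017), and because Polm is dim in controls its size depends on the added constant, from 1.07 to 2.85 over the alternatives. It did not pass without control 1, 2 or 3 (adjusted p = 0.064, 0.075 and 0.068), without PAX5 array 1 (0.25), with set 2 fitted alone (0.058) and with a constant of 1 (0.11). With EBF1, Polm read 27.7, 9.75 and 19.2 against 13.6, 7.69 and 16.1, which overlap, a change of 0.27 (SE 0.24, adjusted p = 0.78). The difference between the EBF1 and PAX5 changes was -1.69 (SE 0.26, limma adjusted p = 0.026), lost under 5 of 16 alternatives, including without control 3 (0.052), EBF1 array 2 (0.065) or PAX5 array 1 (0.32).

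Poll encodes polymerase lambda, which fills gaps during joining. It varied least of the members, from 183 to 229 over all 12 arrays. Its change was 0.02 (SE 0.11, interval -0.23 to 0.27) with EBF1 and 0.02 (SE 0.12, interval -0.26 to 0.30) with PAX5. Both the EBF1 and the PAX5 group overlapped their controls.

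**Figure D4:**
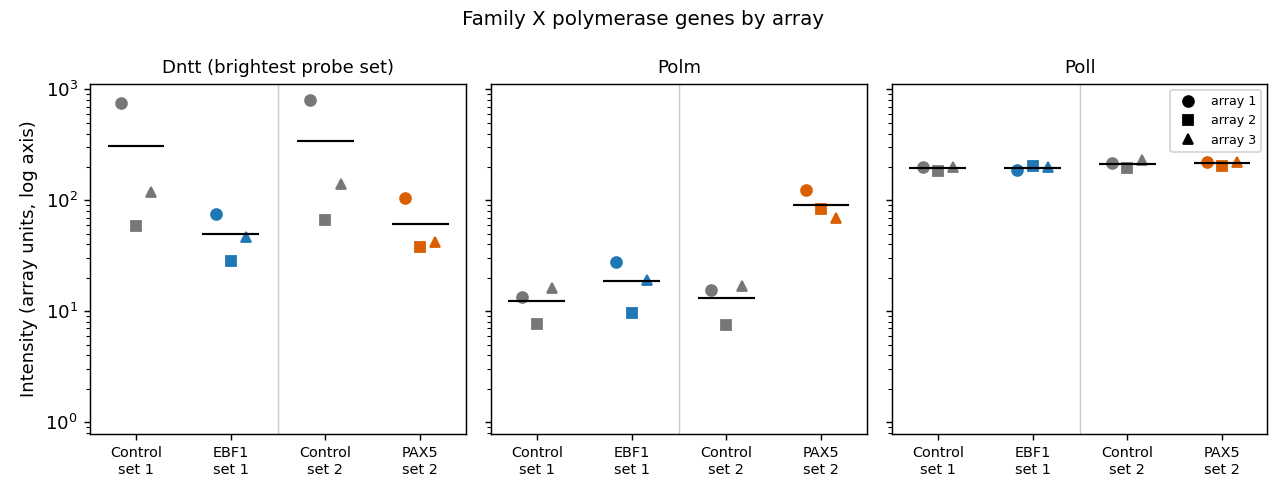
Intensity (log axis, shared) of the brightest Dntt probe set, Polm and Poll in each array, by group, with the mean of 3 arrays as a line. Dntt is highest in control array 1 of both sets, Polm is above all its controls in the PAX5 arrays, and Poll is level at 183 to 229.

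Lig4 encodes the ligase of end joining. It read 81.0, 89.6 and 55.2 in the controls of set 1 and 116, 152 and 90.4 in EBF1 arrays 1, 2 and 3, which are above all controls by a narrow margin. Its change of 0.57 (SE 0.21) had an unadjusted p of 0.025 and did not pass (adjusted p = 0.42). Against the control of equal number it was higher by 0.45, 0.67 and 0.58, a nearly even step. PAX5 arrays read 63.2, 84.9 and 73.0 against 91.0, 94.9 and 59.0, with a change of -0.15 (SE 0.23, adjusted p = 0.94). The difference between both changes was 0.72 (SE 0.23, adjusted p = 0.21).

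Xrcc4 encodes the partner that stabilises this ligase. Its brighter probe set read 266, 291 and 152 in the controls of set 1 and 252, 273 and 205 with EBF1, which overlap, a change of 0.08 (SE 0.22, adjusted p = 0.95). With PAX5 it read 344, 349 and 336 against 297, 313 and 180, above all controls, a change of 0.40 (SE 0.24, adjusted p = 0.74). Control 3 was the low control. The dimmer probe set, at 97.2 to 174 over all arrays, changed by -0.08 with EBF1 and 0.13 with PAX5 and overlapped the controls in both. Lig4 and Xrcc4 thus did not pass in any comparison.

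Prkdc encodes the catalytic subunit of the DNA-dependent protein kinase, which holds and signals from broken ends. It read 479, 540 and 430 in controls and 540, 495 and 552 with EBF1, and 374, 379 and 406 in controls and 391, 332 and 349 with PAX5. The changes were 0.13 (SE 0.11, interval -0.13 to 0.39) and -0.08 (SE 0.13, interval -0.37 to 0.21). Control arrays of equal number, taken as the same hybridisation, had a ratio of set 2 to set 1 of 0.701 to 0.945 here, while the other member probe sets differed by 0.970 to 1.24.

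Xrcc6 encodes Ku70, a subunit of the end-binding heterodimer. Its main probe set read 3528, 1489 and 2439 in controls 1, 2 and 3 of set 1, with EBF1 at 2549, 1687 and 2054, and 3514, 1508 and 2469 in set 2, with PAX5 at 4436, 3093 and 2974. Control 2 was the low control, as for the Rag genes, and the EBF1 and PAX5 groups overlap their controls. The changes were -0.18 (SE 0.30, adjusted p = 0.91) and 0.63 (SE 0.34, adjusted p = 0.69). The other Xrcc6 probe set was dim, at 16.3 to 65.6, with control 2 as the high control, so both probe sets disagree on the order of the controls. It changed by -0.17 and 0.48 without passing.

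Of 13 further end joining genes measured, 0 passed with EBF1 and 0 with PAX5 by limma, with 3 and 2 at unadjusted p under 0.05, and their median change was 0.05 and -0.07. For this and the following lists, the share of all probe sets at unadjusted p under 0.05 was 9.97% with EBF1 and 8.51% with PAX5. The smallest p-values with EBF1 were those of Parp1, a sensor of DNA breaks (0.55, adjusted p = 0.31), and Xrcc5, the Ku80 partner of Ku70 (0.48, 0.40), and with PAX5 those of the repair polymerase gene Polb (0.52, 0.21) and the scaffold gene Xrcc1 (0.49, 0.57). Of 14 break signalling genes 0 passed in either comparison by limma, with 1 and 1 at unadjusted p under 0.05. The kinase gene Atm stood at 0.36 with EBF1 (adjusted p = 0.33) and Trp53bp1, which protects ends from trimming, at -0.25 (0.52) with EBF1 and -0.46 (0.28) with PAX5, where Rif1, its effector, stood at -0.38 (0.67). Of 5 RAG partners and locus neighbours 0 passed in either comparison, with 1 and 0 at unadjusted p under 0.05. With PAX5 Dcaf1, whose product binds RAG1, stood at -0.27 (0.61). Of 4 antigen receptor genes 0 passed, with 0 and 1 at unadjusted p under 0.05. Ighm, the mu heavy chain, read 8093, 7602 and 7390 with PAX5 against 5963, 3337 and 6171, a change of 0.65 (adjusted p = 0.57), while Iglv1 stood at 0.33 (0.70) with PAX5, and Tcra at 0.25 (0.63) and Igk at 0.05 (0.96) with EBF1.

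Of 20 genes reported to regulate Rag or Dntt, 1 rose with EBF1, Foxo1, and 1 with PAX5, the transduced Pax5 itself, and 0 fell. At unadjusted p under 0.05, 4 were higher and 5 lower with EBF1, and 3 were higher and 0 lower with PAX5. Over all probe sets 5.53% were higher and 4.44% lower with EBF1 at that limit, and 4.67% and 3.84% with PAX5. Besides Foxo1, the higher ones with EBF1 were Bcl11a (0.95, limma adjusted p = 0.32), Erg (1.06, 0.42) and Ets1 (0.98, 0.46). The 5 lower ones with EBF1 were Foxp1 (-0.44, 0.25), Aff3 (-0.64, 0.33), Gfi1b (-0.89, 0.45), Foxo3 (-0.35, 0.45) and Spi1 (-0.35, 0.50). Besides Pax5, the higher ones with PAX5 were Bcl11a (1.74, 0.073), above every control array, and Foxo1. Apart from Foxo1 with EBF1 and Pax5 with PAX5, none of these passed by limma, and they are named after their values were seen. Foxo1, a forkhead activator of the Rag genes, read 103, 71.5 and 58.1 in controls 1, 2 and 3 of set 1. It read 1104, 841 and 343 in EBF1 arrays 1, 2 and 3. That order of EBF1 arrays was shared by Rag1 and by the summed committed B cell genes. The order of controls was not that of Rag1, which read 552, 118 and 623. A part of Foxo1 in the Rag1 values was not tested. The Foxo1 change on its brightest probe set was 2.94 (SE 0.38, limma adjusted p = 0.04, from 0.00050 to 0.20 over the alternatives). It failed the threshold in 12 of 19 alternatives, including without control 1 (0.19), 2 (0.16) or 3 (0.19), EBF1 array 1 (0.072) or 2 (0.16) or PAX5 array 1 (0.12), and with the replicate block (0.13). With PAX5 it read 292, 244 and 214 against 126, 87.9 and 76.5, a change of 1.31 (SE 0.42, adjusted p = 0.39). The difference between both changes was 1.63 (SE 0.42, adjusted p = 0.13). The other Foxo1 probe sets changed with EBF1 by 2.18 (limma adjusted p = 0.072), 2.01 (0.13) and 0.07 (0.92), and none of them passed. The median over the 20 genes was 0.03 with EBF1 and 0.12 with PAX5.

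Genes most like a member were taken as those with the smallest root mean square difference in log2 deviation from the control mean over the 8 counted samples, among 18192 other genes. For Rag1 they were Ccl9 (0.57), Stum (0.68) and Rhpn2 (0.73). For Rag2 they were Ets1 (0.41), Cxcr4 (0.46) and Erg (0.47), for Dntt Ptger2 (0.66), Cited4 (0.68) and Mpo (0.71), and for Polm Ptgr1 (0.23), Ighv14-2 (0.24) and Dusp1 (0.24). Iftap was not among the nearest 3 for either Rag gene.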

How the data were processed

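RNA of GFP-sorted cells was hybridised as biotin-labelled cRNA to 1-colour Affymetrix arrays, per the labels. The authors deposited linear intensities, 1 column per array; probe summary and normalization are not given in the sources used here, and 2.50% to 3.05% of values per array are exactly 1. Of 45037 probe sets, the platform annotation gives 1 symbol for 34945, several for 932 and none for 9160. Values were used as log2(intensity + 16), and limma 3.58.1 in R 4.3.3 was run on all probe sets with Benjamini-Hochberg adjustment. The offset between control sets was removed, equal-numbered controls and PAX5 arrays 2 and 3 were averaged, and 3 control, 3 EBF1 and 2 PAX5 samples were fitted together, with 5 residual and 3.68 prior degrees of freedom. The script was tested on simulated data.

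Deviations of equal-numbered control and EBF1 arrays correlated at 0.35, 0.61 and 0.39 over bright probe sets (mean log2 above 8). Numbers may therefore pair these arrays. For PAX5 the correlations were 0.41, 0.19 and 0.33, but PAX5 arrays 2 and 3 count as 1 sample. The main fit held no block for number, so its SEs and p-values leave any such pairing out. In both comparisons the block is an alternative only. Members, lists and the counting of arrays were chosen with earlier results of these data known. All member probe sets were named, and the 3 most alike genes. Of the other lists, markers aside, genes past the threshold or the 2 with the smallest p per comparison were named. On the regulator list, genes with an unadjusted p under 0.05 were named as well. Intervals are 95% intervals. Promoter windows are RefSeq's, GRCm38.p6. Python 3.11.15, pandas 2.3.3 and matplotlib 3.10.9 were used. Alternatives changed the counting of arrays, constant, probe set choice, normalization, filter, block and samples.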

Additional observations from a re-analysis of the deposited data

Results flagged for a closer look

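The EBF1 change and the PAX5 change differed past the threshold, by limma's test of the difference, for 3 genes among the members and the Rag locus neighbours. Rag1 differed by 3.63 in log2, higher with EBF1 (adjusted p = 0.042). Iftap differed by 1.68 on its brightest probe set, higher with EBF1 (adjusted p = 0.03), while 1 of its dim probe sets differed by -0.04 (0.96). Polm differed by -1.69, higher with PAX5 (adjusted p = 0.026). On the other lists, the transduced Pax5 also passed this test on its brightest probe set (-5.38, limma adjusted p = 6.2e-05). So did some marker genes, among them 5 of the 7 committed B cell genes, higher with EBF1. Groups of 3 arrays are too small for a test of single outlying arrays.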

How the results depend on the processing

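The member count was 0 with EBF1 under every alternative run. With PAX5 it was 1 and became 0 with each set fitted alone, a constant of 1 or the filter at a mean log2 of 7, and 0 to 1 when 1 replicate was left out. For the difference it was 2 and became 0 with all 12 arrays counted separately or a constant of 1, 1 with a constant of 64 or the filter, and 0 to 2 when 1 replicate was left out. The filter removes Polm, which is dim.

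Over all probe sets, the count with EBF1 went from 44 to 295 with all arrays counted separately, 18 with sets fitted alone, 14 with a constant of 64, 9 with the filter, 7 with the replicate block and 18 to 597 without 1 replicate. With PAX5 it went from 232 to 638, 122, 96 (constant of 1), 133 (filter) and 50 to 263. For the difference it went from 473 to 208 (all arrays), 226 (constant of 1) and 78 to 874. The replicate block was fitted on the 6 arrays of each set alone, so for PAX5 it also counts arrays 2 and 3, taken as 1 sample elsewhere, as separate. It gave no value for the difference and left the member counts at 0 with EBF1 and 1 with PAX5 (Polm 1.86, adjusted p = 0.038). Of the other genes refitted, Foxo1 lost its call with EBF1 (0.13) and gained one with PAX5 (1.25, 0.031), and Iftap did not pass.

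Signs turned only for changes that passed in no setting. Leaving out 1 replicate gave, with EBF1, -0.042 to 1.18 for Rag2, -0.023 to 0.053 for Poll, -0.19 to 0.24 and -0.21 to 0.019 for the Xrcc4 probe sets, and -0.50 to 0.12 and -0.26 to 0.0010 for those of Xrcc6. With PAX5 it gave -0.99 to 0.075 for the dimmest Dntt probe set and -0.042 to 0.069 for Poll. For the difference it gave -0.49 to 0.33, -0.64 to 0.43 and -0.17 to 0.35 for the 3 Dntt probe sets and -0.034 to 0.032 for Poll. Centring arrays on their medians gave -0.023 for Poll with EBF1, means of probe sets gave -0.0023 for Xrcc4 with EBF1 and 0.0089 for Iftap with PAX5, and all arrays counted separately gave differences of 0.070 for the dimmest Dntt probe set and 0.0072 for Poll. Apart from the causes named by construction, the cause was not tested. Dim probe sets such as Polm and the second Xrcc6 lie near the constant of 16, so their changes are understated.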

Other observations

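Ets1 and Erg, Ets-family factors on the regulator list, are among the 3 genes most like Rag2. They were picked for that likeness over these same samples and both comparisons share their controls, so their direction adds nothing to that of Rag2. Ets1 read 1311, 432 and 1275 in controls 1, 2 and 3 of set 1 and 2342, 1668 and 1476 with EBF1 (change 0.98, limma adjusted p = 0.46). In set 2 it read 1344, 452 and 1338 in the controls and 1593, 2086 and 1979 with PAX5 (0.93, 0.62). Erg read 69.1, 16.3 and 50.2 and then 164, 89.4 and 70.4 with EBF1 (1.06, 0.42), and 79.2, 18.1 and 57.5 and then 133, 83.0 and 79.7 with PAX5 (0.96, 0.61). Neither gene passed in either comparison.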
